A study of Drosophila melanogaster with 6 samples.

Results

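The 10 genes described here encode the enzymes, ion channels, scaffold, kinases, arrestins and lipid-cycle proteins of the fly phototransduction cascade. They are norpA, trp, trpl, inaC, inaD, ninaC, Arr1, Arr2, rdgA and rdgB, taken by gene symbol from a table of 14604 genes, and all 10 were found and tested. The levels come from RNAseq of heads of wild type (WT) Canton S males aged 3 to 5 days. Of the 6 libraries, 3 came from flies fed paraquat (PQ, a redox-cycling herbicide) at 5 mM in 2.5% sucrose and 3 from flies fed 2.5% sucrose alone, both for 12 h. Both groups had the same WT genotype. RNA was extracted from heads of 30 males per group, so each value averages over whole heads, eyes and brain together.

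In the fly eye, light converts rhodopsin to metarhodopsin, which activates a Gq protein and through it phospholipase C. The phospholipase cleaves a membrane phosphoinositide, and cation channels of the TRP family open in the microvilli of the photoreceptor. Arrestins end the activity of metarhodopsin, and a lipid cycle rebuilds the phosphoinositide that was used. Mutations in many of these genes were found through flies with abnormal electrical responses of the eye or with degenerating retinas.

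Levels are given in RPKM (reads per kilobase of transcript, scaled to the mapped reads of the library), a unit scaled by length. Comparisons between genes depend on the length assigned to each, and the annotation release behind it is not given. No value in the table lies below 1 RPKM, which was read as a floor, and 34.8% to 35.5% of the genes of a library stood at it. The 10 genes were far above the floor in every library. Depth per gene is unknown, since no counts were used, and errors are the spread between libraries. The design text calls the libraries of a feeding independent biological replicates, and the methods name more of them per feeding than the 3 analysed here.

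A single sucrose-fed library stood apart in a way that touches several of the 10 genes. In sucrose replicate 2, genes with short transcripts lay above their own mean over the 6 libraries and genes with long transcripts below it. The median deviation on the log2(RPKM + 0.5) scale was 0.16 for the shortest of 5 equal length classes (74 to 1169 bp) and -0.14 for the longest class (4118 to 71382 bp). PQ replicate 1 had the opposite slope, with -0.11 and 0.08. Sucrose replicate 3 was nearly flat, with 0.02 in both classes. PQ replicate 3 had 0.06 in the shortest and -0.05 in the longest class, PQ replicate 2 -0.03 and 0.04, and sucrose replicate 1 -0.06 and 0.06. Fold changes and ratios of the 10 genes and list medians that moved by over 1.5 times or changed sign without sucrose replicate 2 are therefore also given without it.

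**Figure D1:**
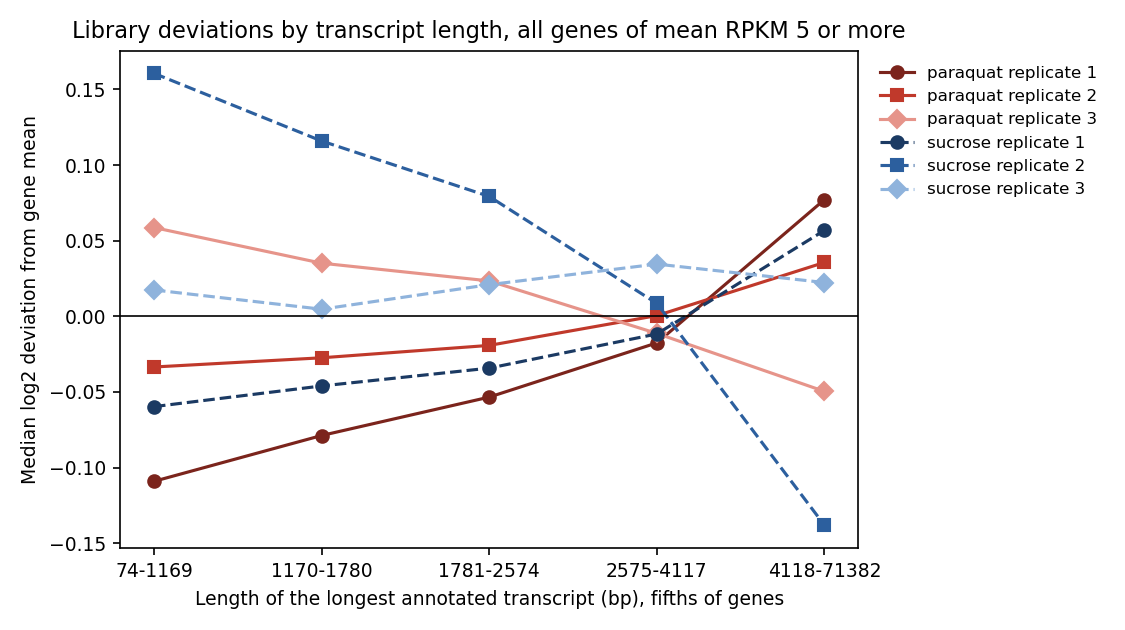
Median deviation of genes from their own mean over the 6 libraries, on the log2(RPKM + 0.5) scale (vertical axis), in 5 equal classes of genes by the length in bp of the longest annotated transcript (horizontal axis), 1 line per library; only genes with a mean of at least 5 RPKM are included. Sucrose replicate 2 has the steepest line, at 0.16 in the shortest class and -0.14 in the longest.

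Of the 10 genes, 8 ranked between 2 and 240 of all genes in the table in every library, and rdgA and rdgB ranked lower, between 938 and 2136. Arr2 and Arr1 ranked 2 and 3 of 14604 genes in every library, behind ninaE, which encodes the main rhodopsin, Rh1. The order by mean level over the 6 libraries was Arr2, Arr1, trp, ninaC, trpl, inaC, inaD, norpA, rdgA and rdgB, at 3852, 3763, 1024, 734, 651, 621, 554, 390, 86.2 and 63.9 RPKM. Each neighbour in this order was above the next in 6 of 6 libraries. For 4 of the 9 neighbouring pairs the ranges over libraries were also apart: Arr1 and trp, trp and ninaC, inaD and norpA, and norpA and rdgA. The ranges overlapped for Arr2 and Arr1, for ninaC and trpl, for trpl and inaC, for inaC and inaD, and for rdgA and rdgB. Those 5 pairs did not differ beyond their ranges over libraries, while within each library, where both genes were measured together, the order was the same in 6 of 6. An error in the length assigned to a gene would recur in every library, so this count does not cover it. Annotated transcripts run from 1356 to 2327 bp for Arr1 and from 3919 to 10147 bp for rdgA. The mean of Arr2 was 1.02 times that of Arr1, and the mean of rdgA 1.35 times that of rdgB. Together the 10 genes made up 2.64%, 2.41% and 2.31% of the summed RPKM in the PQ-fed libraries, against 2.53%, 2.58% and 2.57% in the sucrose-fed libraries. PQ replicate 1 had the highest share of all, so the groups overlapped.

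**Figure D2:**
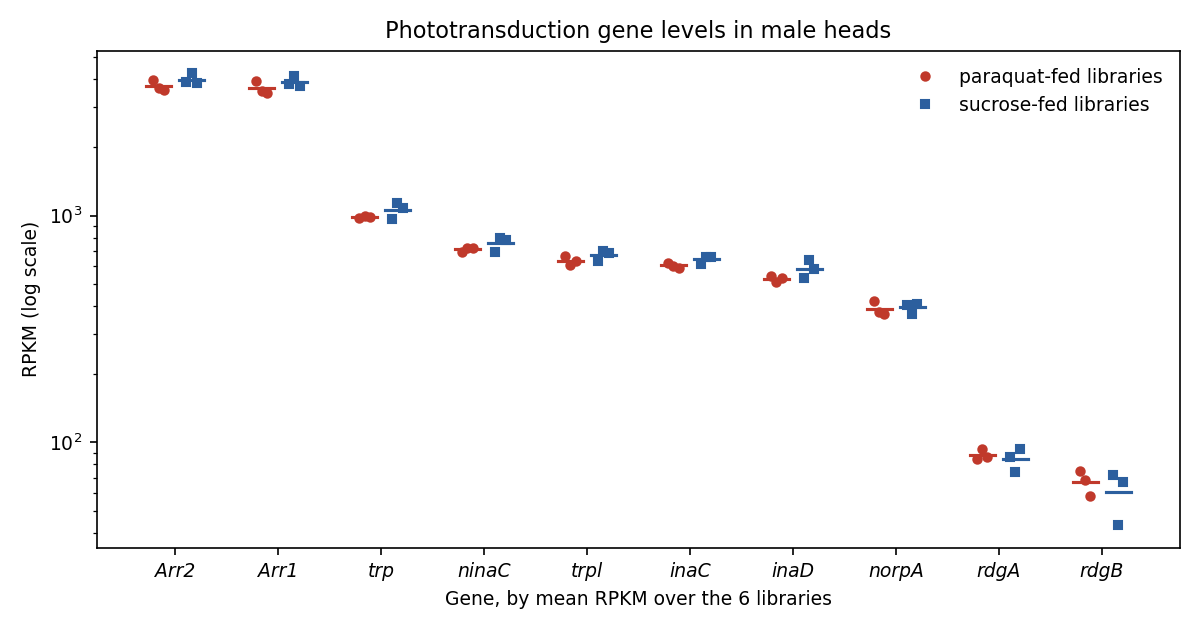
RPKM of the 10 cascade genes (vertical axis, log scale), ordered by mean level along the horizontal axis, with PQ-fed libraries as circles to the left and sucrose-fed libraries as squares to the right of each gene; each point is a library and each bar a group mean. The arrestins stand highest, at 3471 to 4234 RPKM, and rdgA and rdgB lowest, at 43.1 to 93.3 RPKM, with groups that overlap for every gene.

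Of the 10 genes, 0 passed the test for a difference between PQ-fed and sucrose-fed heads. The test was limma on log2(RPKM + 0.5) over 9853 genes with Benjamini-Hochberg adjustment at 0.05, by which 0.0812% of all tested genes were called. At an unadjusted p under 0.05 from limma the count was also 0 of 10, against 3.89% of all tested genes. The groups overlapped for all 10, against 7.57% of tested genes with groups apart in either direction, 4.47% in the lower direction. The log2 fold changes were small, from -0.14 for inaD to 0.17 for rdgB, with 8 below 0 and a median of -0.087. Over all tested genes the median was -0.021 and 57.8% lay below 0. The smallest adjusted p of the 10 was 0.951 and the largest 0.971, both from limma. The exact two-sided permutation test over the libraries gave p from 0.20 to 0.90, where 3 against 3 libraries cannot go below 0.10.

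**Figure D3:**
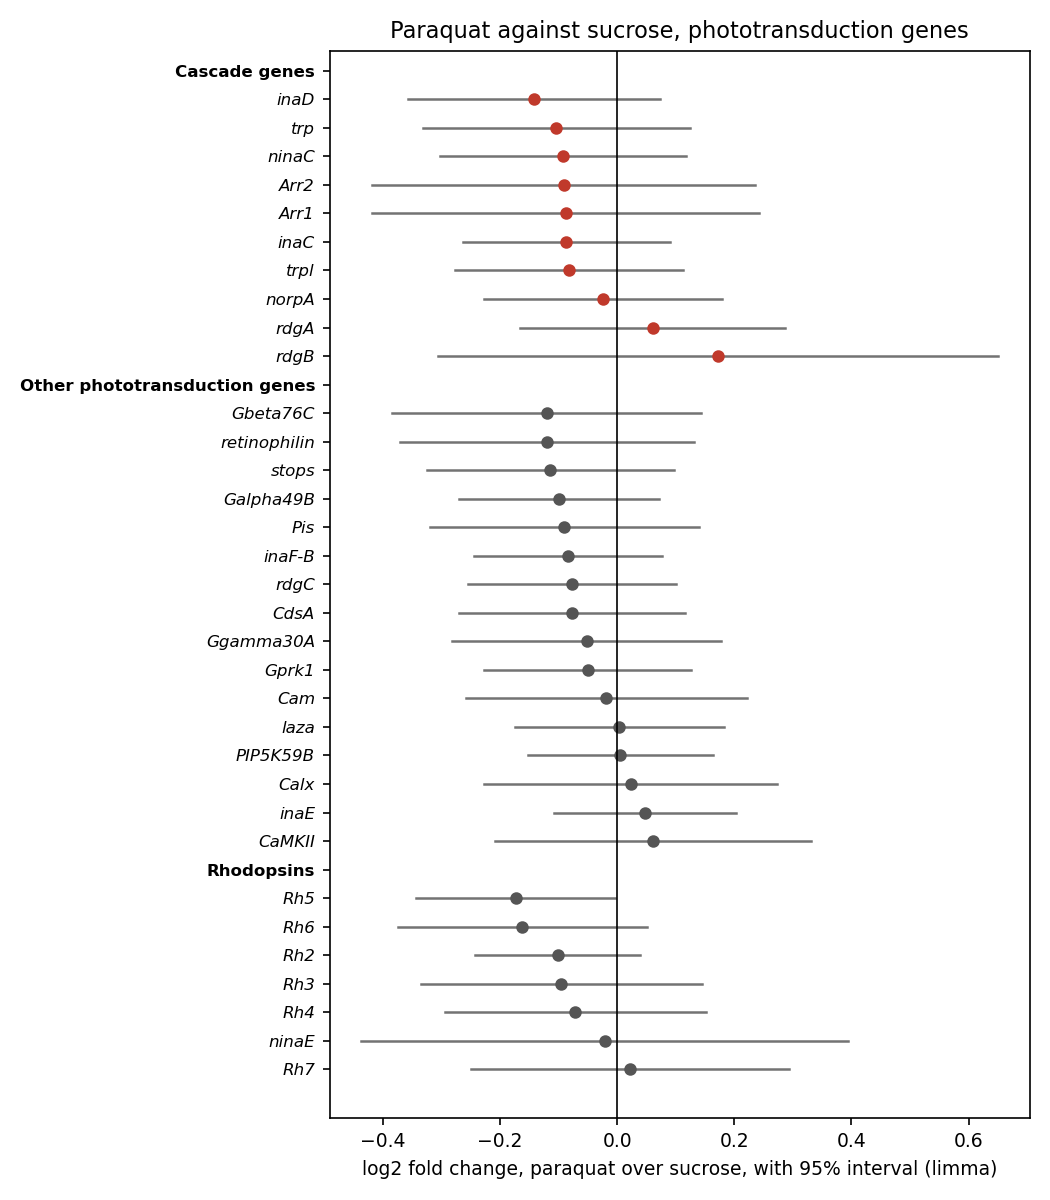
Log2 fold change of PQ-fed over sucrose-fed heads with its 95% interval from limma (horizontal axis) for the 10 cascade genes, 16 other phototransduction genes and 7 rhodopsins. Of the 33 intervals, that of Rh5 is the only one that does not reach 0 (-0.34 to -0.0029), before adjustment for the number of genes tested.

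norpA encodes the phospholipase C of the photoreceptor, the enzyme on which the light response depends. The dm3 table places it on X, 4216659 to 4256487, plus strand. Its level was 420.9, 374.0 and 366.4 RPKM in PQ-fed heads, against 403.2, 368.5 and 408.2 RPKM in sucrose-fed heads. The libraries of both groups interleave, and the means were 387.1 ± 29.5 and 393.3 ± 21.6 RPKM (SD, n = 3 each). The log2 fold change of norpA was -0.02, with a standard error of 0.08 and a 95% interval from -0.23 to 0.18. It was the value closest to 0 among the 10. Its sign turned without PQ replicate 3 (0.014), without sucrose replicate 3 (0.0035), with quantile normalization (0.0073) and with centring on photoreceptor markers (0.086), and it was -0.070 without sucrose replicate 2. The interval of norpA on the chromosome shares 2224 bp with that of CG12693 on the other strand, a gene at the floor.

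trp encodes the main light-activated channel, which is highly permeable to calcium. The trp locus spans dm3 chromosome 3R, 25740242 to 25746011, minus strand. It measured 978.0, 994.1 and 984.3 RPKM in PQ-fed heads, against 968.4, 1141 and 1076 RPKM in sucrose-fed heads. The PQ-fed libraries lay close together, at 985.5 ± 8.15 RPKM (SD, n = 3), and the sucrose-fed libraries further apart, at 1062 ± 87.0 RPKM (SD, n = 3). Sucrose replicate 1 was the lowest of all 6 libraries and sucrose replicate 2 the highest. For trp the log2 fold change was -0.10, with a 95% interval from -0.33 to 0.12, and it was -0.051 without sucrose replicate 2.

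trpl encodes the second channel of the family, which in living flies moves out of the light-sensing membrane during illumination. In dm3 the gene occupies 2R, bases 5641202 to 5653023, plus strand. It measured 660.4, 608.0 and 630.4 RPKM in PQ-fed heads, against 629.4, 698.7 and 682.0 RPKM in sucrose-fed heads. PQ replicate 1 exceeded sucrose replicate 1, so the groups overlapped. For trpl the log2 fold change was -0.08, with a 95% interval from -0.28 to 0.11, and it was -0.051 without sucrose replicate 2. The interval of trpl on the chromosome shares 1141 bp with that of CG1690 on the other strand, a gene at a mean of 9.79 RPKM.

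Within a library, the channel transcripts kept a narrow ratio. The RPKM of trp over that of trpl was 1.48, 1.64 and 1.56 in PQ-fed heads, against 1.54, 1.63 and 1.58 in sucrose-fed heads. The ratios of the groups interleave. The difference of the mean log2 ratio was -0.02, with a standard error of 0.05 (exact two-sided permutation p = 0.70, adjusted p = 0.875 over the 5 ratios examined). The SD of this log2 ratio over the 6 libraries was 0.054, below those of trp (0.095) and trpl (0.077) alone. Without sucrose replicate 2 the difference of the mean log2 ratio was -0.00011.

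inaD encodes the PDZ-domain scaffold that holds the channel TRP, the phospholipase and a protein kinase C in a signalling complex. The gene spans bases 18743211 to 18746317 of 2R (dm3, minus strand). It measured 542.4, 507.4 and 527.8 RPKM in PQ-fed heads, against 530.0, 634.7 and 580.6 RPKM in sucrose-fed heads. Of the PQ-fed libraries, replicate 1 exceeded sucrose replicate 1, and all 3 lay below sucrose replicates 2 and 3. The means were 525.9 ± 17.6 RPKM in PQ-fed and 581.8 ± 52.3 RPKM in sucrose-fed heads (SD, n = 3 each). The log2 fold change of inaD was -0.14, with a standard error of 0.09 and a 95% interval from -0.36 to 0.07. Its adjusted p from limma was 0.951, and the exact two-sided permutation test gave p = 0.20. Leaving out sucrose replicate 1 gave -0.21, and leaving out sucrose replicate 2 gave -0.077. The interval of inaD shares 9 bp with that of the ribosomal protein gene RpL23 on the other strand. The strand setting of the counting is not given in the sources used here.

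The ratio of the scaffold to its channel ligand was examined in the same way. The RPKM of inaD over that of trp was 0.555, 0.510 and 0.536 in PQ-fed heads, against 0.547, 0.556 and 0.540 in sucrose-fed heads. PQ replicates 2 and 3 lay below every sucrose-fed value, and PQ replicate 1 lay within the sucrose-fed range. The difference of the mean log2 ratio was -0.04, with a standard error of 0.04 (exact two-sided permutation p = 0.40, adjusted p = 0.875 over 5 ratios).

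inaC encodes the eye-specific protein kinase C, which binds INAD and acts in shutting off and adapting the response. Its dm3 position is 2R, 12786088 to 12789082, plus strand. It measured 619.1, 599.9 and 588.8 RPKM in PQ-fed heads, against 611.0, 655.4 and 653.7 RPKM in sucrose-fed heads. PQ replicate 1 above sucrose replicate 1 was the only crossing of the groups. For inaC the log2 fold change was -0.09, with a 95% interval from -0.26 to 0.09. Its residual SD of 0.048 on the log2 scale was the smallest of the 10.

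ninaC encodes a class III myosin joined to a protein kinase domain, a calmodulin-binding protein of the photoreceptor. Its dm3 position is 2L, 7377718 to 7384344, plus strand. It measured 688.0, 720.4 and 719.6 RPKM in PQ-fed heads, against 692.8, 799.4 and 781.0 RPKM in sucrose-fed heads. Sucrose replicate 1 lay among the PQ-fed libraries, and the other sucrose-fed libraries above them. For ninaC the log2 fold change was -0.09, with a 95% interval from -0.30 to 0.12, and it was -0.053 without sucrose replicate 2.

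Arr1 and Arr2 encode the visual arrestins, which bind metarhodopsin and stop its signalling. Their dm3 positions are 2L, 18078266 to 18080423, plus strand, for Arr1 and 3L, 8640367 to 8642036, minus strand, for Arr2. Arr2 measured 3944, 3661 and 3584 RPKM in PQ-fed heads, against 3859, 4234 and 3830 RPKM in sucrose-fed heads. Arr1 measured 3936, 3543 and 3471 RPKM in PQ-fed heads, against 3809, 4103 and 3716 RPKM in sucrose-fed heads. For both, PQ replicate 1 lay within the range of the sucrose-fed libraries and the other PQ-fed libraries below it. The log2 fold changes were -0.09 for Arr2 (95% interval -0.42 to 0.24) and -0.09 for Arr1 (95% interval -0.42 to 0.24). They were -0.045 for Arr2 and -0.046 for Arr1 without sucrose replicate 2. The interval of Arr2 lies within that of CG6486 on the other strand, a gene at a mean of 5.16 RPKM.

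The arrestin transcripts followed each other more closely than any other pair examined. The RPKM of Arr2 over that of Arr1 was 1.002, 1.034 and 1.033 in PQ-fed heads, against 1.013, 1.032 and 1.031 in sucrose-fed heads. The SD of the log2 ratio over the 6 libraries was 0.019, while that of each arrestin alone was 0.085 for Arr2 and 0.091 for Arr1. The difference of the mean log2 ratio between groups was -0.0037, with a standard error of 0.017 (exact two-sided permutation p = 1.0, adjusted p = 1.0 over 5 ratios), and without sucrose replicate 2 it was 0.00088.

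rdgA encodes a diacylglycerol kinase, which turns the lipid product of the phospholipase into phosphatidic acid, and its loss causes retinal degeneration. The dm3 table places it on X, 8806401 to 8919837, plus strand, the longest interval of the 10 genes at 113437 bp. It measured 84.5, 93.3 and 85.9 RPKM in PQ-fed heads, against 86.3, 74.3 and 93.2 RPKM in sucrose-fed heads. The PQ-fed values fall inside the sucrose-fed range except for PQ replicate 2, which lies just above it. The log2 fold change of rdgA was 0.06, with a 95% interval from -0.17 to 0.29. Without sucrose replicate 2, the lowest library, it was -0.029. The interval of rdgA also holds 4 annotated features on the other strand, of which CG10962 had the highest mean, at 4.59 RPKM.

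rdgB encodes a phosphatidylinositol transfer protein that returns lipid to the light-sensing membrane, and its loss also causes retinal degeneration. The dm3 table places it on X, 13656803 to 13670775, plus strand. It measured 74.7, 68.4 and 58.3 RPKM in PQ-fed heads, against 71.6, 43.1 and 67.1 RPKM in sucrose-fed heads. Sucrose replicate 2 lay below all the other libraries of either group, and the groups overlapped. The means were 67.1 ± 8.29 RPKM in PQ-fed and 60.6 ± 15.3 RPKM in sucrose-fed heads (SD, n = 3 each). The log2 fold change of rdgB was 0.17, with a standard error of 0.20 and a 95% interval from -0.31 to 0.65, the widest of the 10. Without sucrose replicate 2 it was -0.054, so the direction rests on that library.

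Relative to the phospholipase, the lipid-cycle transcripts varied more than the other pairs. The RPKM of rdgA over that of norpA was 0.201, 0.250 and 0.234 in PQ-fed heads, against 0.214, 0.202 and 0.228 in sucrose-fed heads. The RPKM of rdgB over that of norpA was 0.177, 0.183 and 0.159 in PQ-fed heads, against 0.178, 0.117 and 0.164 in sucrose-fed heads. The differences of the mean log2 ratio were 0.08 with a standard error of 0.11 for rdgA (exact two-sided permutation p = 0.50, adjusted p = 0.875) and 0.20 with a standard error of 0.19 for rdgB (exact two-sided permutation p = 0.60, adjusted p = 0.875). Both ratios had groups that overlapped. Without sucrose replicate 2 the differences were 0.041 for rdgA and 0.016 for rdgB, so most of the rdgB difference rests on that library.

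In sucrose replicate 2 the 10 genes fell into a set of 7 and a set of 3, a division made after the values were seen. The 7 genes trp, trpl, inaC, inaD, ninaC, Arr1 and Arr2 all had their highest level in sucrose replicate 2, with deviations from their means of 0.08 to 0.20 on the log2 scale. In the same library norpA, rdgA and rdgB lay below their means, by deviations of -0.08, -0.21 and -0.54. The set of 3 did not move together in every library. In PQ replicate 1 norpA, rdgA and rdgB deviated by 0.11, -0.025 and 0.25, and in PQ replicate 2 by -0.06, 0.12 and 0.12. In PQ replicate 3 and in sucrose replicates 1 and 3 their deviations had the same sign. The set of 3 shares a long annotated transcript and a position on chromosome X. The longest annotated transcript is 7910 bp for norpA, 10147 bp for rdgA and 7435 bp for rdgB, while those of the other 7 run from 1547 bp for Arr2 to 5295 bp for ninaC. Length did not divide the genes fully, since trp (4149 bp) and ninaC also belong to the longest class and were high in sucrose replicate 2. Among genes with a mean of at least 5 RPKM, the median deviation in that library was 0.03 on X and 0.05 for those not on X.

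**Figure D4:**
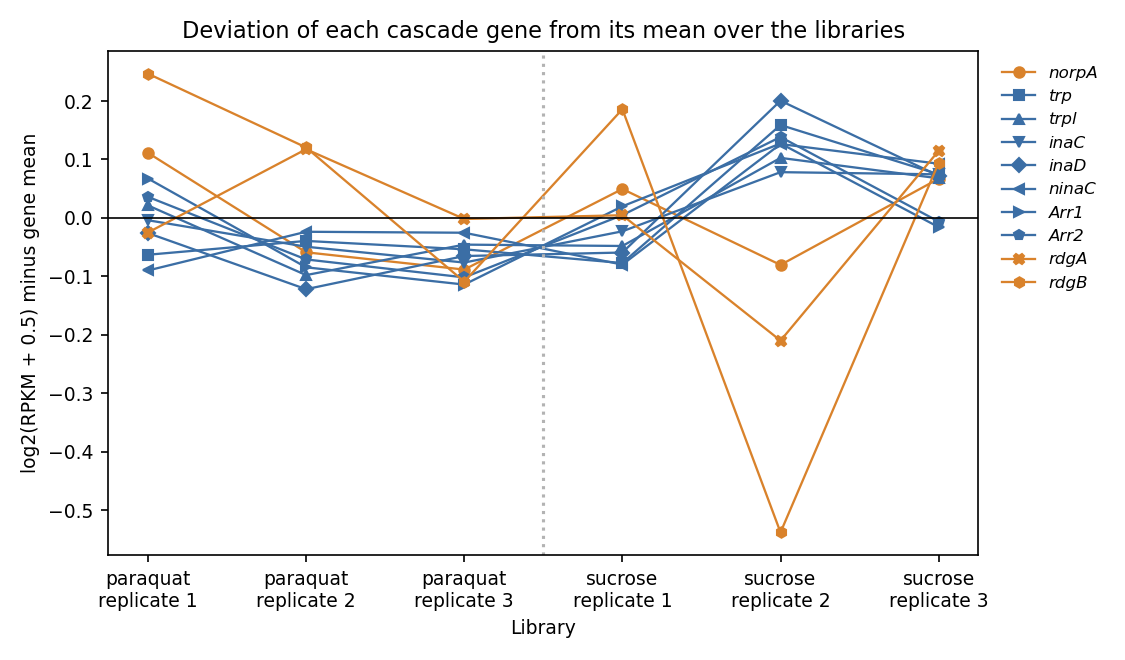
Deviation of each of the 10 cascade genes from its own mean over the 6 libraries, on the log2(RPKM + 0.5) scale (vertical axis), by library (horizontal axis, PQ-fed on the left), 1 marker shape per gene; lines join the values of a gene and do not imply an order of libraries. In sucrose replicate 2 the 7 genes drawn in blue lie between 0.08 and 0.20, while norpA, rdgA and rdgB, in orange, lie at -0.08, -0.21 and -0.54.

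When the transcript length trend was removed from each library, a setting chosen after seeing the data, 9 of the 10 log2 fold changes lay below 0 and rdgB alone was above it (0.10). norpA became -0.10 and rdgA -0.053, and the median of the 10 was -0.065, against 0.0030 over all genes tested. Of the 10 genes 0 passed the test in this fit, with a smallest adjusted p of 0.998 from limma. Without sucrose replicate 2, with no correction for length, all 10 lay below 0 with a median of -0.052, and 0 passed. The median over all genes tested without that library was -0.012. The share of all genes below 0 was not counted in either fit. In the fits that left out 1 other library, 7 or 8 of the 10 lay below 0 and 0 passed limma's test, with medians from -0.12 to -0.067.

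Spread between libraries of a group differed among the 10 genes. The median residual SD of the 10 was 0.086 on the log2 scale, against 0.12 over the 1779 tested genes with a mean of at least 50 RPKM. It was larger than that for rdgA (0.13) and rdgB (0.31). The 95% intervals of limma place the ratio of PQ-fed to sucrose-fed level between 0.748 and 1.18 for each gene but rdgA and rdgB, for which the upper bounds were 1.22 and 1.57 and the lower bounds 0.891 and 0.809. These bounds hold for 1 gene at a time.

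Further genes of the cascade were read from a separate list. Of 17 genes on a list of further phototransduction components, 16 could be tested and 0 passed limma's test in either direction, also at an unadjusted p under 0.05. trpgamma, another channel gene of the family, was at the floor in all libraries. The median log2 fold change of the 16 was -0.065, with 11 values below 0. Galpha49B, the Gq alpha subunit that couples rhodopsin to the phospholipase, measured 244.6, 265.6 and 253.4 RPKM in PQ-fed heads, against 257.0, 273.2 and 288.6 RPKM in sucrose-fed heads. Its log2 fold change was -0.10 (95% interval -0.27 to 0.07). stops, which is needed for normal levels of the phospholipase protein, had a log2 fold change of -0.11, and inaF-B, a small protein required for TRP channel function, one of -0.08. The groups of these 3 genes overlapped.

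The receptors at the head of the cascade also did not pass the test. ninaE measured 7864, 7243 and 7269 RPKM in PQ-fed heads, against 7618, 7961 and 7129 RPKM in sucrose-fed heads, and its log2 fold change was -0.02 (95% interval -0.44 to 0.39). Of the 7 rhodopsin genes 0 passed limma's adjusted test, 6 lay below 0 and the median was -0.095. For Rh5, Rh6 and Rh2, rhodopsins of the R8 cells and the ocelli, every PQ-fed library lay below every sucrose-fed library, as for 4.47% of all tested genes. Their log2 fold changes were -0.17, -0.16 and -0.10, and Rh5 alone was below an unadjusted limma threshold of 0.05, with an adjusted p of 0.951.

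The chaperones that bring rhodopsin and TRP to the membrane had 3 distinct values, all below 0, a median of -0.14 (-0.038 without sucrose replicate 2) and 0 genes past the test, also at an unadjusted p under 0.05 from limma. ninaA, the cyclophilin that escorts Rh1, had a log2 fold change of -0.16. The Xport genes, listed as CG4468 and CG42508, have identical RPKM in every library (log2 fold change -0.14) and count as 1 measurement.

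Photoreceptor genes with other roles had fold changes of a size like that of the cascade genes. The 7 photoreceptor markers outside the cascade, which include chp, eys and Hdc, had 7 values below 0, a median log2 fold change of -0.096 and 0 genes past the test. Their summed level was 754.8 to 791.8 RPKM in PQ-fed and 755.8 to 882.0 RPKM in sucrose-fed heads. gl, the glass transcription factor of photoreceptors, had the lowest value of them, -0.21, followed by Pph13 at -0.16 and prom at -0.11. When every library was centred on the mean of these 7 markers, 9 of the 10 cascade genes lay above 0 and inaD below it (-0.032), the median was 0.023, and 0 passed limma's test with a smallest adjusted p of 0.851. Since neither the cascade genes nor these markers passed the test, a lower level in PQ-fed heads was not established. Were there one, fewer photoreceptors and less of these RNAs per photoreceptor could not be told apart in whole heads.

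Markers of other cells of the head were read beside these values, and 0 genes of any of the lists passed limma's adjusted test. By smallest p the named genes were bw, Cpr72Ec and st (pigment and lens, -0.17, -0.14 and -0.13), para, Cha and futsch (neurons, 0.24, -0.08 and 0.25) and moody, Eaat1 and e (glia, 0.10, 0.07 and -0.13). They were Lsp2, Lsd-1 and bmm in fat body (-0.43, 0.14 and 0.11), bt, sls and Tm2 in muscle (0.13, 0.15 and -0.14) and He, srp and nimC1 in hemocytes (0.43, 0.35 and 0.25). Pigment and lens cell genes had a median log2 fold change of -0.13 (-0.028 without sucrose replicate 2), with 6 of 7 below 0 and summed levels of 1477 to 2358 RPKM in PQ-fed and 1948 to 2324 RPKM in sucrose-fed heads. The 11 neuron markers had a median of 0.072 with 8 above 0, and -0.019 without sucrose replicate 2. The 8 glia markers had a median of 0.0023 with 5 above 0, and the 6 fat body markers 0.077 with 4 above 0. The 9 muscle markers had a median of -0.079 with 7 below 0, and the 5 hemocyte markers 0.35 with 4 above 0. These medians were 0.042 for glia, -0.00089 for fat body, -0.015 for muscle and 0.25 for hemocytes without sucrose replicate 2. At an unadjusted p under 0.05 from limma there was 1 gene in these lists, He of the hemocyte list, a gene close to the floor, at 1.21, 1.55 and 2.14 RPKM in PQ-fed heads, against 1.17, 1 and 1 RPKM in sucrose-fed heads. nimC1 of the same list was also close to the floor, at 1, 1.28 and 1.78 RPKM in PQ-fed heads, against 1.12, 1 and 1 RPKM in sucrose-fed heads. Pxn, the hemocyte marker with the highest level, had means of 39.1 RPKM in PQ-fed and 39.6 RPKM in sucrose-fed heads. Its log2 fold change was -0.022. Hml had a log2 fold change of 0.68, although its highest library was sucrose replicate 1, at 8.86 RPKM. All defining markers of neurons and glia were present, at means of 17.4 RPKM or more. Averaged over the 9 muscle genes, the mean deviation was lowest in PQ replicate 1, at -0.34, although bt and sls were highest there, and the part of cell composition in the values of the cascade genes was not tested.

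The transcripts whose levels over the 6 libraries were most like the mean of the 10 genes, among 7706 others with a mean of at least 5 RPKM, were CG16868, CG5220, Ork1, lqf and CG12320. Their Pearson r with that mean lay between 0.970 and 0.984 over 6 libraries. The values are descriptive, being the highest of many over few libraries. The mean of the 10 genes was highest in sucrose replicate 3 and lowest in PQ replicate 3. This mean does not stand for most of the 10 genes. Of the 10, 7 were highest in sucrose replicate 2, where rdgB deviated by -0.54, and 0 in sucrose replicate 3. The median deviation of the 10 was 0.11 in sucrose replicate 2 and 0.073 in sucrose replicate 3. lqf, which encodes the endocytic adaptor epsin, had 244.5, 233.9 and 221.6 RPKM in PQ-fed heads, against 242.6, 240.5 and 252.9 RPKM in sucrose-fed heads. Ork1, an open rectifier potassium channel, measured 10.7, 10.1 and 9.23 RPKM in PQ-fed heads, against 10.2, 10.5 and 11.7 RPKM in sucrose-fed heads.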

How the data were processed

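RNAseq libraries were made from heads of Canton S males with mRNA library reagents, and 50-bp paired-end reads were mapped by the authors with TopHat2 2.0 to dm3, per the labels. The deposited values are RPKM, computed by the authors for every gene of each library. The counting tool, the annotation release and the strand setting are not given in the sources used here. The methods also name trimmed means of M-values as a normalization of transcript abundance. A second deposited table, with the fold changes and z test p-values of the authors, was not used.

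The 10 genes were matched by symbol. Genes at the floor of 1 RPKM in all libraries (4751 of 14604) were left out. The other 9853 were tested with limma 3.58.1 in R 4.3.3 on log2(RPKM + 0.5), a scale that understates changes of low genes, with a mean-variance trend, two-sided, Benjamini-Hochberg adjusted at 0.05. limma was tested on simulated data. Ratios within libraries were compared with exact permutation tests (scipy 1.17.1). The other lists were matched by symbol, RefSeq gene ID or alias, and the members and lists were chosen with earlier results of these data known. Transcript lengths came from the Ensembl release of the later BDGP6 assembly, were matched by gene identifier for 97.7% of tested genes, and use no coordinates. By rule the text names all 10 genes, ninaE, every list gene past the test or up to 3 of smallest p, and the 5 genes most like the members. Other genes were named after their values were seen, among them trpgamma, chp, eys and Hdc.

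Alternatives covered the pseudocount (0.1 or 1), the filter (none, or means from 5 RPKM upward), scaling by trimmed means of M-values, quantile normalization, centring on the median gene or on marker lists, eBayes without a trend or robust, the replicate number as a block, and fits without each library in turn. Removal of the transcript length trend was added after seeing the data. Same-numbered libraries shared deviations for replicate 1 (r = 0.41 over genes, none of them a replicate) but not for replicates 2 and 3 (0.056 and 0.048), so numbers were not treated as pairs.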

Additional observations from a re-analysis of the deposited data

How the results depend on the processing

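Under all 19 alternatives 0 of the 10 genes passed limma's test, and the smallest adjusted p among them was 0.457, without sucrose replicate 1. The median log2 fold change of the 10 was -0.087. It moved by more than the spread between libraries (0.054) with quantile normalization (-0.023), with centring on the photoreceptor markers (0.023) and with centring on neuron markers (-0.20), and stayed within it in the other 16, with a range of -0.12 to -0.052 over fits that left out 1 library. With the replicate block it was also -0.087, and the number of all genes called was 4, against 8 without it. It was 5 with a pseudocount of 0.1, 1 with no filter and 0 with quantile normalization or without a trend. That number was 0 without sucrose replicate 1, 2 or 3 and without PQ replicate 2 or 3, and 5 without PQ replicate 1.

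Only inaD kept its direction in all 19 alternatives. The direction of norpA turned in 4, that of rdgA in 3 and that of each other gene in 1. Centring on the photoreceptor markers gave 0.086 for norpA, 0.0060 for trp, 0.029 for trpl, 0.024 for inaC, 0.017 for ninaC, 0.023 for Arr1 and 0.019 for Arr2. This shift follows from the construction, since the markers lay below 0. Quantile normalization gave 0.0073 for norpA and 0 for both arrestins and their ratio, because their ranks are the same in every library. norpA ran from -0.086 (without PQ replicate 1) to 0.014 over fits that left out 1 library, rdgA from -0.029 (without sucrose replicate 2) to 0.13 and rdgB from -0.054 (without sucrose replicate 2) to 0.31. rdgA was -0.048 with centring on neuron markers and -0.053 with the length trend removed. The difference in the log2 ratio of trp to trpl ran from -0.057 (without PQ replicate 2) to 0.014 (without PQ replicate 1), and that of Arr2 to Arr1 from -0.012 (without sucrose replicate 1) to 0.011 (without PQ replicate 1). The cause of the turns not explained by construction was not tested. Depth per gene was not used, so counting error is unknown.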
